A study of Mus musculus with 8 samples.

Results

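The genes described here are 10 genes of transforming growth factor beta (TGF-beta) signalling. They are the ligand gene *Tgfb1*, the receptor genes *Tgfbr1*, *Tgfbr2* and *Tgfbr3*, the receptor-regulated SMAD genes *Smad2* and *Smad3*, and the feedback and repressor genes *Smad7*, *Ski*, *Skil* and *Pmepa1*. They were taken by name from 54838 genes in the count files, and all 10 had enough reads to be tested among the 13903 genes tested. RNA came from natural killer (NK) cells sorted from mouse spleen as CD45+, CD49b+ and CD3-. Per the labels, 4 libraries (hNK) came from wild-type FVB/n mice and 4 (teNK) from MMTV-PyMT mice. MMTV-PyMT mice express the polyoma middle T oncogene from a mammary promoter and develop mammary tumours, and the series design calls the teNK donors tumour-bearing. All cells were kept for 12 to 16 h in medium with cytokines before RNA was extracted, so both groups share this culture. The sources used here give no ages, no names of cytokines, no strain background for the MMTV-PyMT mice and no number of animals per library. Whether replicates are separate animals is not stated either, and the p-values therefore reflect spread between libraries that may be technical.

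TGF-beta is secreted in a latent form and, once released, is bound by the type II receptor, which recruits and phosphorylates the type I receptor. The type I receptor phosphorylates SMAD2 and SMAD3, which join SMAD4 and enter the nucleus to regulate genes. The pathway induces several of its own inhibitors, among them *Smad7* and *Pmepa1*. In NK cells, TGF-beta is known to restrain interferon gamma production and cytotoxicity and to favour features of tissue-resident innate lymphocytes.

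In teNK, 7 of the 10 genes fell, 2 rose and 1 did not pass the test. Over all genes tested, 51.9% were called, 26.4% higher and 25.6% lower in teNK, so a call in this comparison is common. *Pmepa1* fell 82.9-fold, *Tgfb1* 3.66-fold and *Ski* 2.99-fold, while *Smad3* rose 2.70-fold. These 4 genes were called and changed at least 2-fold, as did 14.1% of all genes tested. The ranges of hNK and teNK libraries were separate for 9 of the 10 genes, against 46.5% of all genes tested (24.1% with teNK above, 22.4% with hNK above). The median log2 fold change was -0.64 over the 10 genes and -0.02 over all genes tested. Calls are from edgeR's quasi-likelihood test at an adjusted p under 0.05, with adjustment over all genes tested. Levels are in CPM, the counts of a gene relative to the reads of its library after scaling by TMM (trimmed mean of M values), unless stated otherwise.

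**Figure D1:**
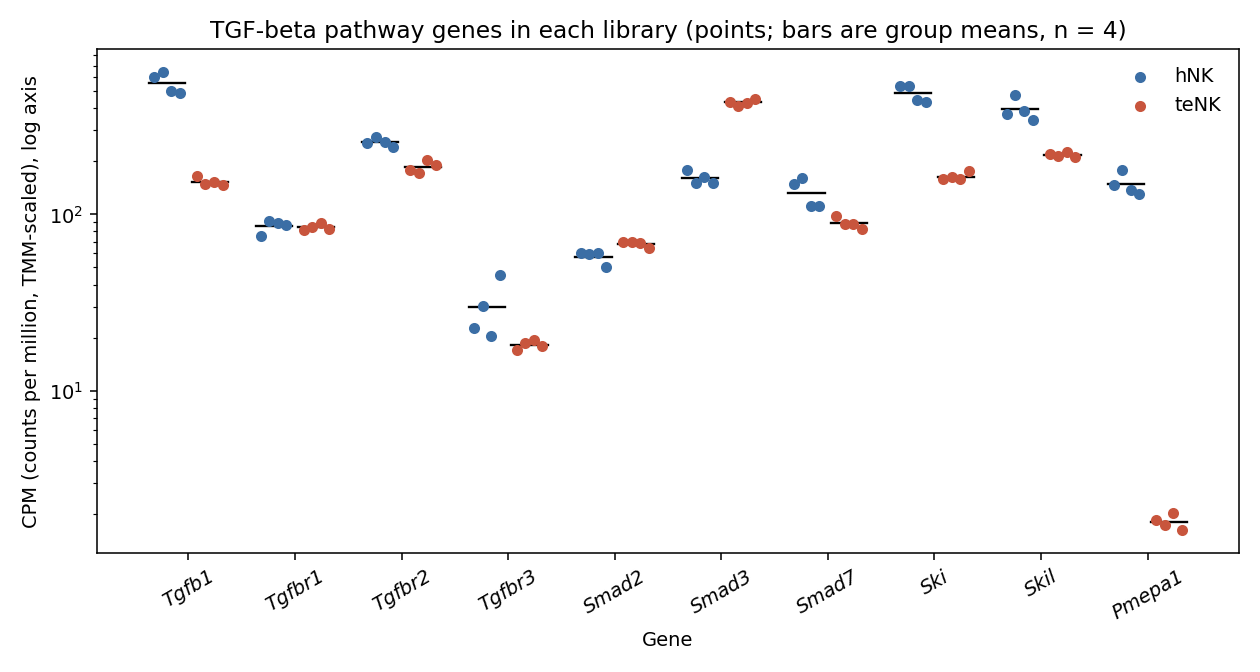
CPM of each of the 10 genes in each of the 8 libraries on a log axis, with hNK in blue, teNK in red and a black bar for each group mean. *Pmepa1* lies between 131 and 178 CPM in hNK and between 1.61 and 2.01 CPM in teNK, and *Smad3* is the gene with the largest rise.

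Libraries differed in depth by group. The hNK libraries held 5202131 to 12419324 reads on genes and the teNK libraries 13111043 to 16209895. Defining NK genes were present in both groups, with 209 and 1013 CPM of *Ncr1* and 1702 and 1943 CPM of *Il2rb* in hNK and teNK. T cell markers had a summed level of 98.6 to 123 CPM in hNK and 103 to 121 CPM in teNK, and 1 of 5 tested, *Cd3d*, was higher in teNK (2.25 and 4.91 CPM). Most of the T cell sum was *Cd28*, at 77.1 CPM in hNK and 78.2 CPM in teNK. Of 8 markers of mammary tumour cells, the keratin and milk genes *Krt8*, *Krt14*, *Krt5*, *Wap* and *Csn2* had no read in any library. The 2 tested, *Cdh1* and *Epcam*, were called lower in teNK, and *Krt18* had 7 reads in hNK and 8 in teNK. The 8 markers summed to 16.98 to 23.35 CPM in hNK and 0.994 to 2.04 CPM in teNK. Monocyte and macrophage markers summed to 554 to 753 CPM in hNK and 421 to 495 CPM in teNK, most of it *Ccr2*, which was called lower. Of the 4 tested, 2 were called higher in teNK. They were *Lyz2* (0.460 and 6.95 CPM in hNK and teNK) and *Ly6c2* (12.5 and 59.8 CPM). Markers of several other cell types were higher in teNK, among them those of platelets and B cells. Dendritic cell markers summed to 12.6 to 17.8 CPM in hNK and 69.8 to 90.8 CPM in teNK, where *Itgax* was at 70.0 CPM. Neutrophil, erythroid, and basophil and mast cell markers each summed to at most 1.265 CPM in hNK libraries. In teNK libraries their sums lay between 1.65 and 6.86 CPM. Of 19 tested platelet and megakaryocyte markers 17 were higher, with a summed level of 319 to 428 CPM in hNK and 510 to 805 CPM in teNK. *Ctla2a*, at 241 CPM in hNK and 73.4 CPM in teNK, and *Itgb3* made up much of that sum in hNK and did not rise. The marker *Gp1bb* had no read in hNK and 9 reads in teNK. Of 10 B cell markers 9 were higher, with summed levels of 88.2 to 130 CPM and 135 to 167 CPM. *Ighm*, at 95.8 CPM in hNK and 96.5 CPM in teNK, made up most of these sums and was not called. The 9 rises ran from 1.51 on the log2 scale for *Ighd* to 6.91 for *Cr2*. In such bulk samples, fewer cells of a type and less RNA per cell cannot be told apart.

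RefSeq windows on GRCm38.p6 held the bases before the start site for 5 of the 10 genes. They are *Tgfb1*, *Tgfbr1*, *Tgfbr2*, *Smad3* and *Ski*. Shown are the windows of the pair with the largest falls among them and of the gene with the largest rise, each 5′ to 3′ on the gene's strand. Capitals mark GGCGC on either strand, a GC-rich element that SMAD proteins are known to bind.
Tgfb1, chr7:25686752-25687001, plus strand: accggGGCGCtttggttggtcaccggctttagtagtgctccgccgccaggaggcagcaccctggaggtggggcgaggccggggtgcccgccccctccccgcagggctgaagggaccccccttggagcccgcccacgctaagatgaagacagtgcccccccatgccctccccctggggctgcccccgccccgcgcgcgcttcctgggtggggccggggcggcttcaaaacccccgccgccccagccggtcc
Ski, chr4:155222593-155222785, minus strand: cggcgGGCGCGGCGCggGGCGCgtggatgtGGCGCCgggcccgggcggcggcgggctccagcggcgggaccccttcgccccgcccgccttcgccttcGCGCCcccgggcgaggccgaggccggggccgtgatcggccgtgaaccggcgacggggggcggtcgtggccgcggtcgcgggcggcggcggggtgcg
Smad3, chr9:63757995-63758244, minus strand: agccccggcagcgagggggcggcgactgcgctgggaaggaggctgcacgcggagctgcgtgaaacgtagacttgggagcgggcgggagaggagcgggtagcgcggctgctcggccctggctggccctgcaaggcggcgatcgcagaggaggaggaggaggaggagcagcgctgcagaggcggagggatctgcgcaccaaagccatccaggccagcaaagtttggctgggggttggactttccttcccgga

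The stretch of *Ski* stops 57 bases short of the RefSeq start site, where GENCODE already places transcribed sequence. In the 250 bases before the start site, GGCGC or its complement occurred 7 times in *Ski*, 1 time in *Tgfb1* and 0 times in *Smad3*. Such a match was present in 32.0% of 32851 mouse windows of this length, and 7 or more in 1.07%. GGCGC and its complement GCGCC overlap in GGCGCC, and each was counted. CAGAC or its complement GTCTG, the short SMAD-binding element, was in none of these 3 windows and in 42.2% of all windows. The palindrome GTCTAGAC was in none of the 3 and in 0.167% of all. A match of letters is a description of the window and not a binding site.

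*Tgfb1* (ENSMUSG00000002603, chromosome 7, 25687002 to 25705077, GRCm38) encodes the TGF-beta1 ligand. It was measured at 602, 640, 503 and 492 CPM in hNK replicates 1 to 4 and at 164, 149, 152 and 147 CPM in teNK replicates 1 to 4. Every teNK library was below every hNK library. The group means were 559 ± 73.5 and 153 ± 8.02 CPM (SD, n = 4). The fitted log2 fold change was -1.87 ± 0.09 (SE, edgeR adjusted p = 2.36e-11). Platelets are known as a rich store of the TGF-beta1 protein, and platelet markers moved the other way, as given above; their part in the result was not tested. *Tgfb3*, another ligand gene of the family, was at 4.44 ± 0.226 and 6.13 ± 0.992 CPM, and *Tgfb2* had 3 reads in hNK and 0 in teNK.

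The receptor genes differed among themselves. *Tgfbr2* (ENSMUSG00000032440, chromosome 9, 116084293 to 116175360) encodes the type II receptor that binds the ligand. It was at 255, 275, 259 and 242 CPM in hNK and at 179, 173, 203 and 191 CPM in teNK. The groups did not overlap, and *Tgfbr2* fell by 0.47 ± 0.07 on the log2 scale (adjusted p = 1.86e-05, edgeR), 1.39-fold. *Tgfbr1* (ENSMUSG00000007613, chromosome 4, 47353222 to 47414931) encodes the type I receptor kinase. It was at 75.7, 91.9, 89.7 and 87.3 CPM in hNK and at 81.4, 84.9, 89.7 and 82.9 CPM in teNK. These ranges overlapped, with a log2 fold change of -0.02 ± 0.07 (adjusted p = 0.816, edgeR). The sign of this value changed without hNK replicate 2 (0.013) and without teNK replicate 1 (0.0022).

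*Tgfbr3* (ENSMUSG00000029287, chromosome 5, 107106570 to 107289629) encodes betaglycan, a co-receptor that presents ligand to the type II receptor. It was measured at 22.8, 30.3, 20.3 and 45.2 CPM in hNK and at 16.98, 18.6, 19.3 and 17.8 CPM in teNK. The lowest hNK library was just above the highest teNK library, and hNK replicate 4 was far above the other hNK libraries. *Tgfbr3* fell by 0.68 ± 0.17 on the log2 scale (adjusted p = 0.00349, edgeR). Without hNK replicate 4 the log2 fold change was -0.45 (adjusted p = 0.00614, over a range of 8.34e-10 to 0.0126 across all alternatives). A further gene model on the same strand covers 4.54% of the exon bases of *Tgfbr3*.

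The receptor-regulated SMAD genes both rose, by unequal amounts. *Smad3* (ENSMUSG00000032402, chromosome 9, 63646767 to 63757994) was at 178, 150, 162 and 150 CPM in hNK and at 436, 414, 428 and 451 CPM in teNK. The lowest teNK library stood far above the highest hNK library. Its mean was 160 ± 13.1 CPM in hNK and 432 ± 15.3 CPM in teNK, and it rose by 1.43 ± 0.07 on the log2 scale (adjusted p = 3.74e-11, edgeR). *Smad2* (ENSMUSG00000024563, chromosome 18, 76241580 to 76310963), whose product is a close relative of SMAD3, was at 60.4, 59.2, 60.7 and 50.2 CPM in hNK. In teNK it was at 69.3, 69.3, 68.7 and 64.1 CPM. The groups did not overlap, but replicate 4 was the lowest of each group. The log2 fold change of *Smad2* was 0.23 ± 0.07 (adjusted p = 0.0118, edgeR). It did not pass when libraries were scaled by their size alone (0.10, adjusted p = 0.230) or thinned to equal depth (0.19, adjusted p = 0.0773), in a range of 0.00737 to 0.230 over all alternatives.

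The feedback and repressor genes among the 10 members, *Pmepa1*, *Ski*, *Skil* and *Smad7*, all fell. *Pmepa1* (ENSMUSG00000038400, chromosome 2, 173224458 to 173276533) encodes a membrane protein that sequesters SMAD2 and SMAD3 and is induced by TGF-beta. It was at 147, 178, 138 and 131 CPM in hNK and at 1.84, 1.71, 2.01 and 1.61 CPM in teNK. The teNK values rest on 28, 27, 25 and 21 reads, above the level of 3 reads per library (0.190 to 0.241 CPM), and hNK had 5569 reads in all. The log2 fold change was -6.37 ± 0.13 (adjusted p = 3.03e-15, edgeR). The ratio of pooled reads, hNK over teNK, was 86.0 with an exact 95% Clopper-Pearson interval of 70.6 to 106, which covers counting error only. Ordered by fitted change, *Pmepa1* was number 18 from the lowest of the 13903 genes tested.

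*Ski* (ENSMUSG00000029050, chromosome 4, 155154075 to 155222592) and *Skil* (ENSMUSG00000027660, chromosome 3, 31095058 to 31122577) encode the related corepressors SKI and SnoN, which bind SMAD complexes and hold target genes down. *Ski* was at 535, 536, 449 and 434 CPM in hNK and at 159, 163, 159 and 176 CPM in teNK. *Skil* was at 373, 476, 388 and 343 CPM in hNK and at 220, 215, 225 and 211 CPM in teNK. Neither gene overlapped between groups. *Ski* fell by 1.58 ± 0.08 (adjusted p = 6.55e-11) and *Skil* by 0.86 ± 0.08 (adjusted p = 2.61e-07) on the log2 scale, by edgeR.

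*Smad7* (ENSMUSG00000025880, chromosome 18, 75367529 to 75395935) encodes the inhibitory SMAD that blocks the type I receptor. It was at 149, 161, 111 and 112 CPM in hNK and at 98.2, 87.8, 88.4 and 82.7 CPM in teNK. The hNK libraries fell into a higher pair and a lower pair, and all were above the highest teNK library. The higher pair, replicates 1 and 2, held 11395122 and 12419324 reads on genes, and replicates 3 and 4 held 5800098 and 5202131. *Tgfb1* and *Ski* were also higher in replicates 1 and 2 than in 3 and 4, and the part of depth was not tested. *Smad7* fell by 0.59 ± 0.10 on the log2 scale (adjusted p = 0.000168, edgeR), 1.51-fold.

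**Figure D2:**
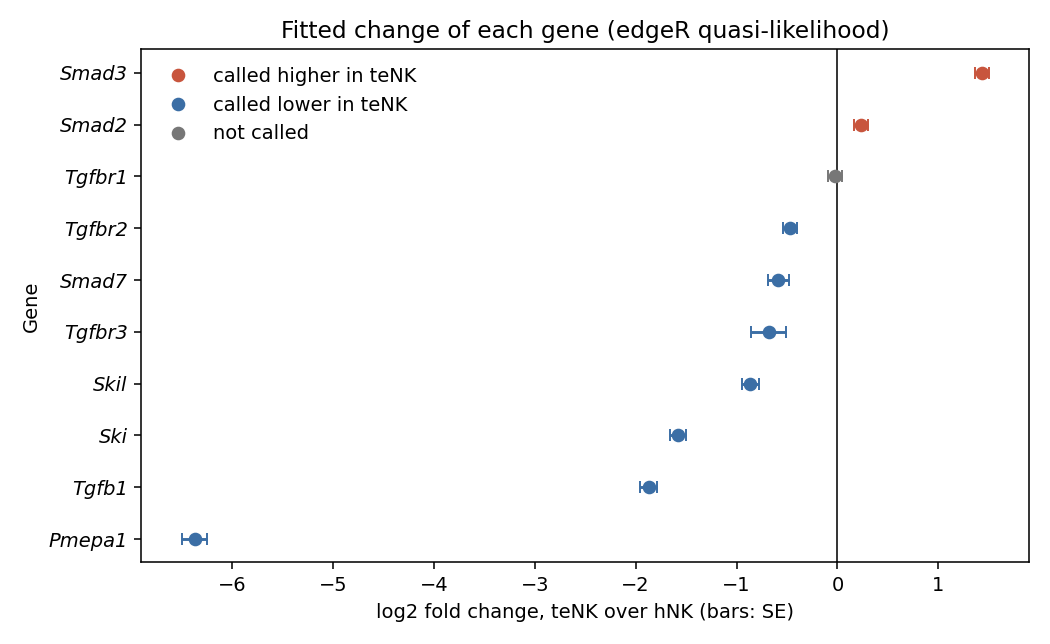
Fitted log2 fold change of teNK over hNK for each gene, with the standard error as a bar and colour for the call. *Pmepa1* stands at -6.37, the other falls lie between -1.87 and -0.47, and *Smad3* stands at 1.43.

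Length-scaled levels (CPM per kilobase of exon) put the genes of a group on a common scale. In hNK the order from the top was *Tgfb1* (111 ± 14.6), *Ski* (87.8 ± 9.86) and *Skil* (40.8 ± 5.87), whose libraries did not overlap with their neighbours in the order. *Tgfbr2* (31.5 ± 1.66), *Pmepa1* (30.2 ± 4.19), *Smad7* (29.5 ± 5.63) and *Smad3* (28.9 ± 2.37) followed, and each overlapped with the next. *Tgfbr1* (13.2 ± 1.11), *Smad2* (6.56 ± 0.567) and *Tgfbr3* (4.53 ± 1.71) were lowest, and *Smad2* and *Tgfbr3* overlapped. In teNK the level of *Smad3* (78.0 ± 2.75) was the highest of the 10. *Tgfb1* (30.3 ± 1.59) and *Ski* (29.5 ± 1.42) came next and overlapped, as did *Tgfbr2* (22.8 ± 1.66) and *Skil* (22.5 ± 0.623). *Smad7* (19.8 ± 1.43), *Tgfbr1* (13.0 ± 0.556), *Smad2* (7.73 ± 0.286), *Tgfbr3* (2.78 ± 0.152) and *Pmepa1* (0.365 ± 0.035) followed without overlap.

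**Figure D3:**
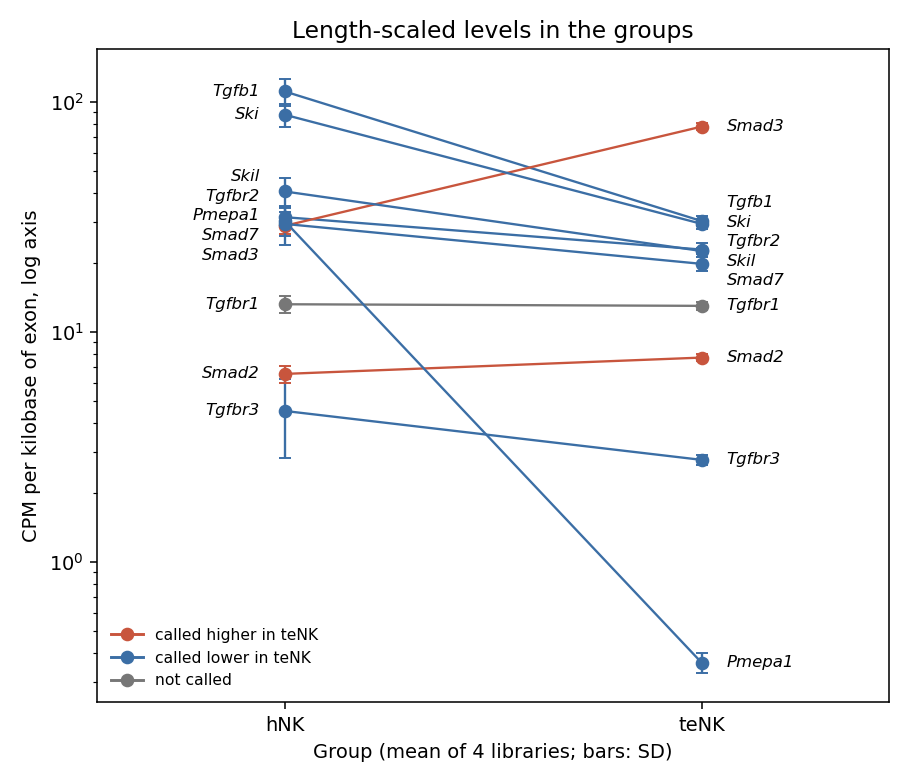
Mean CPM per kilobase of exon in hNK and teNK on a log axis, with SD bars (n = 4) and colour for the call. *Tgfb1* leads in hNK and *Smad3* in teNK, and *Pmepa1* drops from the middle of the order to its end.

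Ratios of length-scaled levels within a library do not depend on how libraries are scaled to each other, and are given as a description. The ratio of *Smad3* to *Smad2* was 4.67, 4.02, 4.24 and 4.74 in hNK and 9.98, 9.46, 9.88 and 11.1 in teNK. The inhibitory *Smad7* and *Smad3* stood at a ratio of 1.02 ± 0.208 in hNK and 0.253 ± 0.021 in teNK. The ratio of *Skil* to *Ski* was 0.465 ± 0.049 in hNK and 0.764 ± 0.054 in teNK, and that of *Tgfbr1* to *Tgfbr2* was 0.419 ± 0.034 and 0.570 ± 0.032. For these 4 ratios no library of a group reached the range of the other. The ratio of *Tgfbr3* to *Tgfbr2* overlapped between groups, at 0.145 ± 0.061 and 0.122 ± 0.0084.

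**Figure D4:**
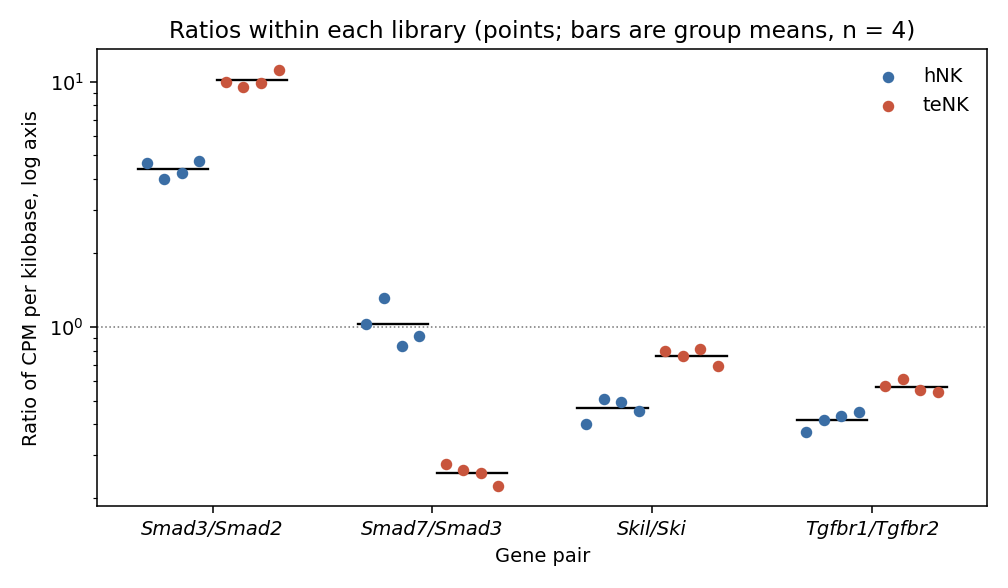
Ratio of length-scaled levels of 4 gene pairs in each library on a log axis, with a black bar for each group mean and a dotted line at 1. The *Smad3* to *Smad2* ratio lies at 4.02 to 4.74 in hNK and 9.46 to 11.1 in teNK.

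The genes whose levels over the 8 libraries were most like those of *Smad3*, among 9308 genes whose mean log2 CPM was 2 or more, were *Myo18a*, *Nod1* and *Tnk2*. Each gene was centred on its own mean, and the root mean square differences from *Smad3* were 0.054, 0.061 and 0.062 on the log2 scale. *Nod1*, a sensor of bacterial peptidoglycan, rose from 109 ± 7.73 to 286 ± 9.43 CPM. Nearest to *Pmepa1* were *Slc7a5* (0.22), *Asns* (0.39) and *Gpt2* (0.55), which encode a large neutral amino acid transporter subunit, asparagine synthetase and an alanine aminotransferase. *Slc7a5* was at 417 ± 45.4 CPM in hNK and 5.59 ± 0.502 CPM in teNK, and fell by 6.22 ± 0.11 on the log2 scale (edgeR adjusted p = 4.26e-16).

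Other genes of the pathway were counted by list. Of 95 tested genes, each counted once, 46 rose, 25 fell and 24 did not pass, against 26.4% higher and 25.6% lower over all genes tested. Several of these lists hold genes that are highly expressed in NK cells or that mark platelets.

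Among ligands and activators, which store, cleave or release latent TGF-beta, 7 of 10 tested genes rose and 2 fell, and the median change was 0.65 on the log2 scale. *Thbs1*, the thrombospondin 1 gene, rose by 7.89 ± 0.23 and is also among the platelet markers given above, whose part in this result was not tested. *Ltbp1*, a latent TGF-beta binding protein, had 8 reads in hNK and 671 in teNK. Its pooled ratio was 53.8, with an exact 95% interval of 27.1 to 125, and its log2 fold change moved from 5.68 to 6.42 without hNK replicate 2. *Nrros*, which anchors latent TGF-beta1 on the cell surface, rose from 37.6 ± 2.16 to 75.0 ± 5.72 CPM. *Furin*, the protease that cleaves the TGF-beta precursor, fell from 168 ± 10.4 to 96.2 ± 4.33 CPM.

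Activin and BMP ligands and receptors were mostly too low to test. Of 6 tested, 1 rose and 3 fell, with a median of -0.22. *Acvr2a*, an activin type II receptor, fell from 50.5 ± 8.64 to 17.4 ± 1.11 CPM, and *Bmpr2*, the BMP type II receptor, from 91.1 ± 12.3 to 70.6 ± 2.59 CPM. The activin and BMP type I receptor gene *Acvr1* fell from 1.28 ± 0.199 to 0.254 ± 0.112 CPM, and the ligand gene *Gdf11* rose from 0.576 ± 0.325 to 2.71 ± 0.293 CPM. Both rest on few reads, with 47 in hNK and 14 in teNK for *Acvr1* and 19 and 153 for *Gdf11*. The level of 3 reads per library was 0.238 to 0.542 CPM in hNK and 0.190 to 0.241 CPM in teNK.

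Of 10 tested other SMADs and partners, 4 rose and 2 fell, with a median of 0.15. *Smad4*, the shared partner of SMAD2 and SMAD3, had means of 150 ± 7.97 and 179 ± 3.35 CPM and rose by 0.25 ± 0.06 on the log2 scale (adjusted p = 0.00172, edgeR). *Runx1* rose from 168 ± 13.7 to 380 ± 21.4 CPM and *Runx2* fell from 187 ± 11.1 to 137 ± 3.49 CPM. These encode runt-domain factors that can bind DNA beside SMADs. *Trim33*, a ubiquitin ligase that binds SMADs, rose from 198 ± 8.44 to 229 ± 3.33 CPM. The calls of *Smad4* and *Trim33* were lost with library size scaling alone, at log2 fold changes of 0.12 and 0.08.

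Adaptors, ligases and phosphatases were split, with 8 of 24 tested genes higher, 5 lower and a median of 0.04. *Ldlrad4*, a relative of *Pmepa1* that also sequesters SMADs, was at 62.6 ± 14.0 CPM in hNK and 14.8 ± 0.919 CPM in teNK, and fell by 2.103 ± 0.13 on the log2 scale (edgeR adjusted p = 9.65e-10). *Fam210a* on the opposite strand covers 52.1% of its exon bases, and the strand setting of the counting was not given in the sources used here, so the value of *Ldlrad4* is uncertain. *Sptbn1*, a spectrin that acts as a SMAD adaptor, rose from 498 ± 23.5 to 1008 ± 23.3 CPM. *Ppp1r15a*, a phosphatase subunit that SMAD7 recruits to the type I receptor, rose from 31.3 ± 1.44 to 154 ± 19.8 CPM, and the SMAD phosphatase gene *Ctdsp2* fell from 98.3 ± 6.67 to 63.4 ± 2.02 CPM.

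In the TAK1 branch, a kinase route that leads to p38 and JNK, 4 of 10 genes rose and 3 fell, with a median of 0.01. The TAK1-binding protein genes *Tab1* and *Tab2* fell by 0.88 ± 0.12 and 0.57 ± 0.06 on the log2 scale. Of the p38 kinase kinases, *Map2k3* fell from 80.7 ± 4.49 to 39.2 ± 2.95 CPM and *Map2k6* rose from 4.91 ± 1.06 to 10.8 ± 1.26 CPM.

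Genes that TGF-beta is known to induce in lymphocytes were split as well. Of 13 tested, 5 rose and 7 fell, with a median of -0.78. The residency integrin gene *Itga1* fell from 14.9 ± 5.34 to 0.452 ± 0.167 CPM and the chemokine receptor gene *Cxcr6* from 33.8 ± 4.96 to 2.86 ± 0.444 CPM. *Nt5e* (CD73) and the nuclear receptor gene *Rora* fell by 1.44 ± 0.08 and 1.48 ± 0.07 on the log2 scale. The 5 that rose were *Itgb7*, *Cd9*, *Hic1*, *Rgs16* and *Rgs1*, the last from 130 ± 39.7 to 607 ± 53.7 CPM. Among target genes known from other cells, 5 of 8 tested rose and 2 fell, with a median of 1.00. *Cdkn1a*, the cell cycle inhibitor p21, fell by 2.76 ± 0.10, whereas *Junb*, *Tsc22d3* and *Tsc22d1* rose by 2.69 ± 0.13, 1.80 ± 0.09 and 1.29 ± 0.10. *Junb* is also an immediate early gene and *Tsc22d3* a glucocorticoid target, so they are not specific to TGF-beta.

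Genes that TGF-beta is known to lower in NK cells rose in 12 of 15 tested and fell in 2, with a median of 1.49. The 2 that fell were *Myc* and *Id2*, with log2 fold changes of -0.54 and -0.41, and *Gzmb* (-0.29) was not called. *Id2* is also in the list of target genes known from other cells, so its fall is counted in both lists. The inhibitory receptor gene *Klrg1* rose by 3.91 ± 0.09, and *S1pr5*, an egress receptor, by 3.21 ± 0.08. The maturation factors *Zeb2* and *Tbx21* (T-bet) rose by 2.09 ± 0.07 and 2.07 ± 0.07. Many of these genes also mark mature NK cells. Of the 12 NK markers checked here 11 rose, with a summed level of 8087 to 9102 CPM in hNK and 14480 to 15030 CPM in teNK; their part in this list's values was not tested.

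**Figure D5:**
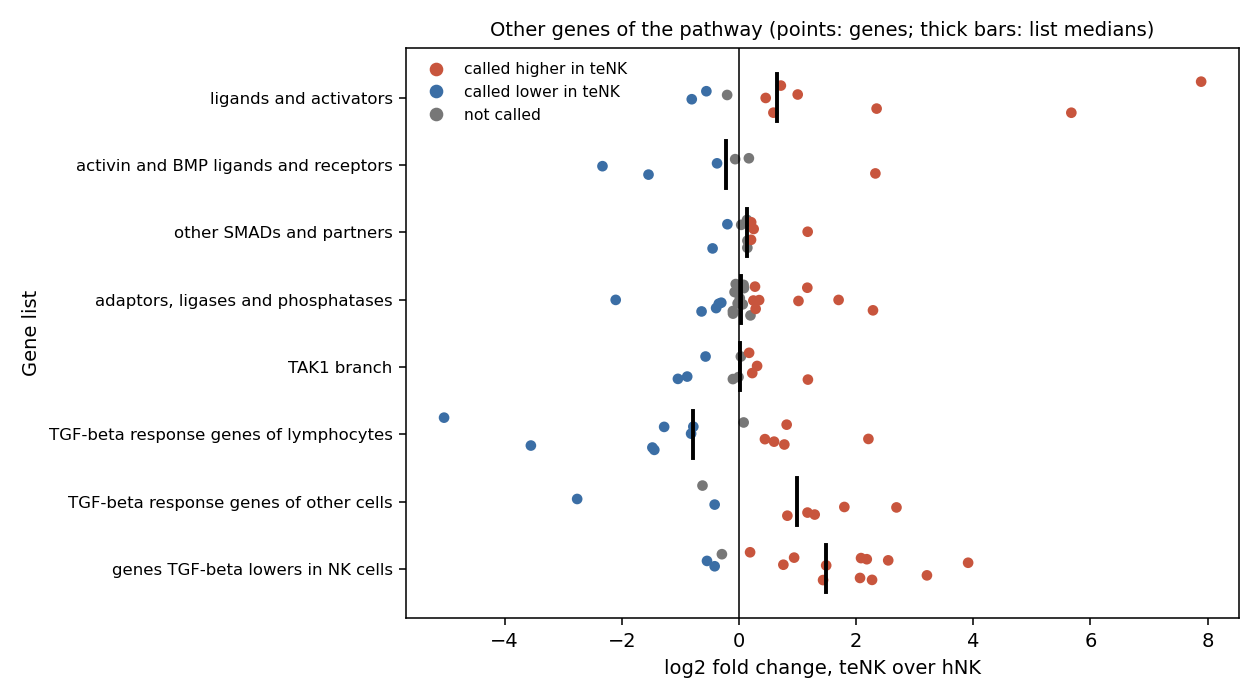
Log2 fold change of teNK over hNK for each tested gene of the 8 other pathway lists, with colour for the call and a thick bar for each list's median. Medians run from -0.78 for genes induced in lymphocytes to 1.49 for genes lowered in NK cells.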

How the data were processed

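The authors deposited whole-number read counts per Ensembl gene for each library, without normalization. Per the submitters' processing notes, HISAT2 2.1.0, SAMtools, HTSeq and the build GRCm38 were used; order, settings, annotation release and strand handling are not given in the sources used here. The 5 summary lines of each deposited file of counts stayed out; 32.3% to 41.2% of reads were on the line for no gene. GENCODE M21 gave symbols, coordinates and exon lengths for 54809 of 54838 identifiers. The teNK descriptions name runs in several lanes and those of hNK do not, so layout and group cannot be told apart.

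In R 4.3.3 with edgeR 4.0.16, genes were kept by filterByExpr (13903 of 27313 with a read), scaled by TMM and compared by the quasi-likelihood test with group as its only term, with Benjamini-Hochberg adjustment. SE is the log2 fold change divided by the square root of F. The test was run on simulated counts first. Chi-square comparisons of library pairs within groups gave 3.51 to 11.3 per degree of freedom, so all 8 libraries were counted. DESeq2 1.42.0 and limma 3.58.1 were alternatives. The members and lists were chosen with earlier results of these data known. Named from each other list were up to 4 called genes with the smallest adjusted p. *Tgfb2*, *Tgfb3*, *Myc*, *Id2*, *Gzmb*, the lymphocyte response genes that rose and the marker genes were named outside this rule. *Hgs* and *Ncr3* had no single identifier and were not used.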

Additional observations from a re-analysis of the deposited data

Results flagged for a closer look

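*Smad2* was flagged in both groups because a single library stood apart from the other 3. In hNK, replicate 4 was at 50.2 CPM, below the others at 59.2 to 60.7 CPM, a gap of 0.861 of the group's range. In teNK, replicate 4 was at 64.1 CPM, below the others at 68.7 to 69.3 CPM, a gap of 0.876 of the range; both gaps were above Dixon's 95% critical value for 4 libraries. The sources used here do not say whether equal replicate numbers tie these libraries together. Of 20 gene and group combinations tested 2 were flagged, and chance flags about 1 in 20.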

How the results depend on the processing

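The test was refitted under 17 alternatives; *Acvr1*, a gene of low counts, was not tested with thinned counts. The 7 falls among the 10 genes and the rise of *Smad3* kept their direction and call in all of them. The count of genes called higher was 1, not 2, with library size scaling and with thinned counts, since *Smad2* then gave log2 fold changes of 0.10 and 0.19. *Tgfbr1*, which was not called under any alternative, changed sign with thinned counts (0.0040), without hNK replicate 2 (0.013) and without teNK replicate 1 (0.0022), in a range of -0.085 to 0.013 without single libraries; the cause was not tested. Scaling by library size alone shifted the median of all genes by -0.13 on the log2 scale and gave 2709 genes higher and 5114 lower, against 3665 and 3557 with TMM. Measured from the median of all genes, *Smad2* was higher by 0.25 under both scalings. A change of scaling moves all genes by about the same amount, so this distance could hardly differ and is no test of the rise. With thinned counts the distance was 0.21. With the replicate number as a block, 2 of the 10 genes were higher and 7 lower, and 3581 and 3401 over all genes. Libraries of the same number deviated together with correlations of -0.11 to 0.15, not all above 0.1, and hNK replicate 1 correlated best with teNK replicate 2 (0.23), so the numbers were not taken as pairs. Leaving out single libraries gave log2 fold changes of -6.43 to -6.27 for *Pmepa1*, -1.93 to -1.80 for *Tgfb1* and 1.40 to 1.49 for *Smad3*. *Tgfbr3* rests on 123 to 382 reads per hNK library and 233 to 293 per teNK library.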

Other observations

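The spread between libraries was larger in hNK than in teNK for 9 of the 10 genes. The share of all genes tested with this trait was not computed, so whether it is particular to these genes cannot be told. Over all genes tested, log2 CPM of library pairs correlated at 0.982 to 0.989 within hNK and at 0.992 to 0.993 within teNK. The hNK libraries also held fewer reads, as given above. The coefficient of variation in hNK ran from 5.27% for *Tgfbr2* to 37.8% for *Tgfbr3*, and in teNK from 2.77% for *Skil* to 9.68% for *Pmepa1*. *Tgfbr2* was the exception, with 7.29% in teNK.

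The epithelial adhesion genes *Cdh1* (E-cadherin) and *Epcam* belong to the list of mammary tumour cell markers given above. They were named after their values were seen, and were lower in teNK in the same libraries. *Cdh1* averaged 15.8 CPM in hNK and 0.885 CPM in teNK and fell by 4.14 on the log2 scale (edgeR adjusted p = 6.08e-11), and *Epcam* averaged 4.22 and 0.465 CPM. The keratin genes *Krt8*, *Krt14* and *Krt5* had no read in any library, and *Krt18* had 7 reads in hNK and 8 in teNK.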
